A study of Homo sapiens with 4 samples.

Results

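The genes described here are the 19 human WNT genes, which encode secreted ligands, and 12 receptor genes, namely FZD1 to FZD10 and the co-receptors LRP5 and LRP6. Their chromatin was read as ATAC-seq peaks, stretches of open DNA that a transposase can enter, in LM2 cells, a lung-metastatic derivative of the human breast cancer line MDA-MB-231. A peak belonged to a gene when it lay inside it or within 10 kb of either end, on GRCh38 gene positions. By this rule 223 of the 190348 peaks in the deposited table were members, 141 at ligand genes and 82 at receptor genes, and 216 of them held enough counts to be tested. The study compared 2 libraries of LM2 cells carrying a nontargeting control with 2 libraries of LM2 cells carrying a CECR2 deletion made with one guide, sg1. Per the labels, each library was made from 50000 cells, both groups were grown in medium with puromycin, and the deletion is represented by this 1 guide. CECR2 is a bromodomain protein of a chromatin remodelling complex, so the comparison asks where chromatin opened or closed in its absence. No source used here says whether the 2 libraries of a group came from separate cultures, so the p-values measure the spread between libraries, which may be technical.

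WNT ligands leave the cell with a lipid attached by PORCN and carried by WLS, and bind a Frizzled receptor at the surface of the receiving cell. Together with LRP5 or LRP6 the receptor halts the destruction of beta-catenin, which then acts with TCF and LEF proteins in the nucleus, while other ligands such as WNT5A are best known for signalling without beta-catenin. In breast tissue WNT signalling is known for its part in mammary development, and mouse Wnt1 was found as a gene activated by insertions of a mammary tumour virus. An open peak at a ligand gene says nothing of how much ligand is made, since no RNA was measured in these libraries.

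The RefSeq promoter table (GRCh38.p14) held 25 windows, each 250 bases before to 50 bases after a transcription start, for 22 of the 31 genes. Their median GC content was 73.7%, against 62.3% over 22199 promoter windows of protein-coding genes, and their median count of CG dinucleotides was 31 against 21. A peak lay on 7 of 19 ligand windows, from 6 of 16 genes, and on 5 of 6 receptor windows. The 4 stretches below show the upstream 250 bases of contrasting cases, 5′ to 3′ on the gene's own strand. WNT9A (chr1:227947933-227948182, minus strand) had the most CG-rich window among the ligand promoters whose peak rose, FZD4 (chr11:86955396-86955645, minus strand) had one of the most open promoters of the family and hardly differed between groups, and WNT8B (chr10:100462759-100463008, plus strand) had no peak at its start. In these 3, capitals mark CG dinucleotides, of which the upstream stretch holds 44 in WNT9A, 33 in FZD4 and 3 in WNT8B. WNT10A (chr2:218880602-218880851, plus strand) is shown because its locus held the lower peaks with the smallest p of any ligand, and its capitals mark the letters of an NF-kB match.
WNT9A: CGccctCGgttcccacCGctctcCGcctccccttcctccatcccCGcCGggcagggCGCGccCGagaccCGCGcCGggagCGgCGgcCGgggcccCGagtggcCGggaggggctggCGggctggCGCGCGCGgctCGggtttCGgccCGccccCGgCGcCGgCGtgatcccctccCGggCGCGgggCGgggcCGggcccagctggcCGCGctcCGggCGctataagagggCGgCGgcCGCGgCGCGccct
FZD4: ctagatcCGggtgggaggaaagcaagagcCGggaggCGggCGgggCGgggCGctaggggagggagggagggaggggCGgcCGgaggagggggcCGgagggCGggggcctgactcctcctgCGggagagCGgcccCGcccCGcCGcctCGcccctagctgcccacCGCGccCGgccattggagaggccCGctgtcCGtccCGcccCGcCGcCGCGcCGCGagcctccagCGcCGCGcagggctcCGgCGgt
WNT8B: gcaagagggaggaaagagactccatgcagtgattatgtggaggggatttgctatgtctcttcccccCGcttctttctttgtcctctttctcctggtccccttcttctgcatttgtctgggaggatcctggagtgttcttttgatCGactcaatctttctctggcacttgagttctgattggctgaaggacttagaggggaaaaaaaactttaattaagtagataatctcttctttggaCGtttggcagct
WNT10A: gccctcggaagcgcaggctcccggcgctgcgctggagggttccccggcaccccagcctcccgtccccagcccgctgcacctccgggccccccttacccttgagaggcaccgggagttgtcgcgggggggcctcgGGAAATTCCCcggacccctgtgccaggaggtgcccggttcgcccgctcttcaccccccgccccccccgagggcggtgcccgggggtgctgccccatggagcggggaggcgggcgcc
The letters searched on both strands were CTTTGAA and CTTTGAT for TCF/LEF, TGACTCA for AP-1, GGAATG for TEAD and, for NF-kB, 2 forms of its 10-letter consensus, of which one is the stretch capitalised in WNT10A read on the opposite strand. Among the 25 member windows none held the TCF/LEF or AP-1 letters, found in 5.48% and 4.01% of all promoter windows, 1 held TEAD letters (WNT16, against 12.2%), and 1 held NF-kB letters (WNT10A, against 0.320%). The WNT10A match lies on the minus strand, at position -116 from the start. These matches describe letters, not bound sites.

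The libraries differed in depth with the groups: 21002477 and 15561701 counts in control against 43519018 and 38924086 in sg1, after the first 250 kb of chromosome 1 was left out. The part left out also differed with the groups, at 17.99% and 17.88% of all counts in control against 25.41% and 25.36% in sg1. Over all 184717 tested peaks 31041 were lower in sg1 (16.8%) and 21269 were higher (11.5%), 28.3% in either direction, in edgeR's quasi-likelihood test at a false discovery rate of 0.05, and both terms are used for that call below. CECR2 itself had no peak on its promoter window, and the tallest peak near it was higher in sg1 in edgeR (7.78 against 10.3 CPM, log2 fold change 0.39, adjusted p = 0.0430) and not called in DESeq2 (adjusted p = 0.189), so these data hold no check of the deletion. Promoter peaks were present at all 6 genes of the list for the MDA-MB-231 type, at both groups' levels of 11.3 to 85.6 CPM (counts per 1000000 counts of the library after scaling), and at 5 of 5 luminal genes with at most 10.96 CPM. They were present at 2 of 5 blood genes, CD3E and CD14, at up to 32.0 CPM (none at PTPRC, CD79A or ITGAM), at 2 of 3 fibroblast genes at up to 17.4 CPM, and at 0 of 3 endothelial genes.

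Of the 216 tested peaks at WNT ligand and receptor genes, 20 were lower in sg1 (9.26%) and 41 were higher (18.98%), 61 in all. The same shares were 16.8% and 11.5% over all tested peaks, and 15.5% and 12.2%, or 27.8% in either direction, over the 119460 tested peaks within 10 kb of protein-coding genes. Their median log2 fold change, sg1 against control, was 0.25, with 150 peaks above 0 and 66 below, while the median over all tested peaks was 0.02. In DESeq2 only 12 members were higher and 16 were lower, where that tool called 4.35% of all peaks higher and 9.37% lower, so higher calls outnumbered lower ones in edgeR and not in DESeq2. The 20 lower peaks had the larger changes: their median was -1.24 and 16 of them were past a 2-fold change, whereas the 41 higher peaks had a median of 0.60 and 12 were past it. Over all peaks the corresponding medians were -1.05 and 0.87, with 52.8% and 43.1% past a 2-fold change. In all, 143 of the 216 peaks (66.2%) had groups that did not overlap, against 63.7% of all tested peaks. Members were also read by level, in 3 equal classes of all tested peaks. Their median was 0.51 over 58 members in the lowest class, 0.24 over 75 in the middle and 0.15 over 83 in the highest. Over all peaks of these classes the medians also fell with level, at 0.11, 0.009 and -0.017. Calls showed no steady trend with level: 25 higher and 8 lower members in the highest class, 7 and 9 in the middle, and 9 and 3 in the lowest. Among all tested peaks lower calls led in each class. They made up 23.95% against 16.43% higher in the highest class, 15.55% against 9.93% in the middle and 10.92% against 8.18% in the lowest. The part of the deeper sg1 libraries in these values was not tested. Fewer cells with an open site and a less open site in each cell cannot be told apart in such libraries.

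**Figure D1:**
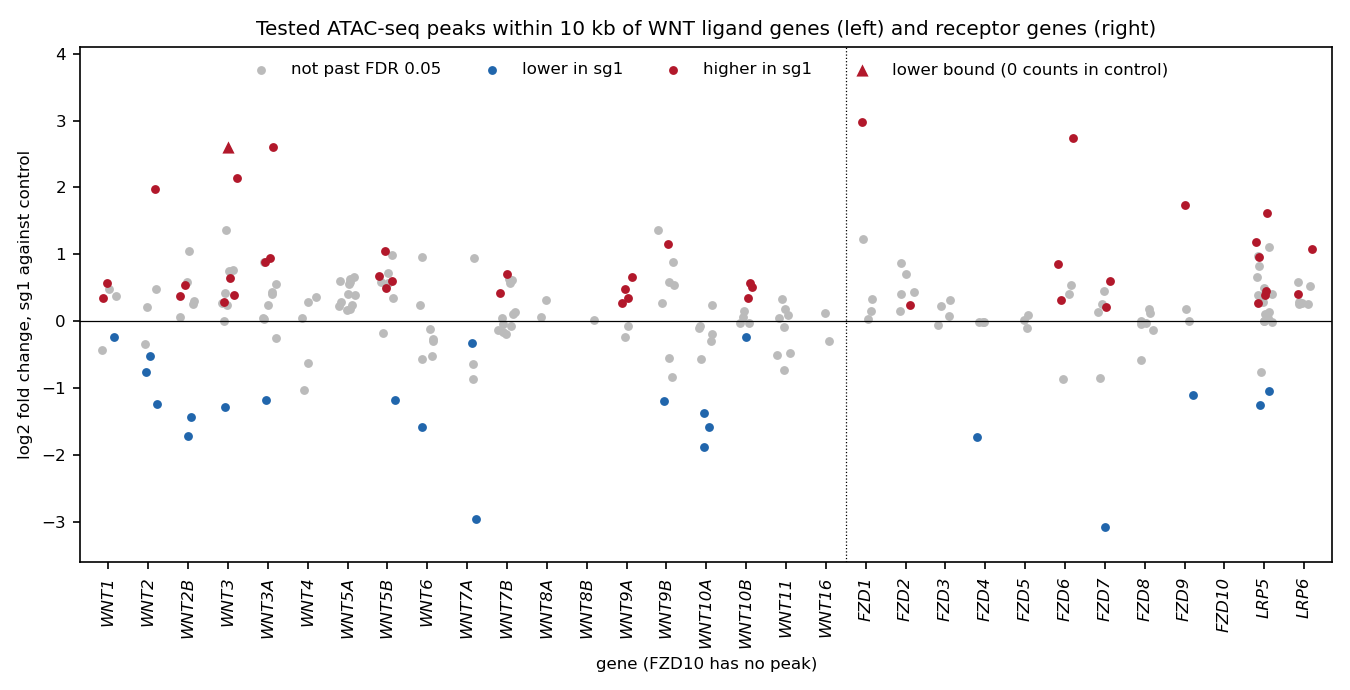
Log2 fold change (sg1 against control) of the tested peaks within 10 kb of each gene, ligands left and receptors right of the dotted line, with 1 point per peak coloured by edgeR's call at a false discovery rate of 0.05. The triangle is a lower bound for a WNT3 peak with 0 control counts. The 20 lower peaks have a median of -1.24 and the 41 higher ones a median of 0.60, and a peak in the windows of 2 genes is drawn at both.

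Both ligand and receptor genes held more higher than lower peaks in edgeR, a direction that turned for the ligands under other settings. The 138 tested ligand peaks had a median of 0.24, and 15 of them were lower (10.9%) and 25 higher (18.1%). The 78 tested receptor peaks had a median of 0.26, and 5 of them were lower (6.41%) and 16 higher (20.5%). In DESeq2 the ligands had 12 lower and 6 higher peaks and the receptors 4 and 6. Of all ligand calls 62.5% were higher in edgeR and 33.3% in DESeq2, against 40.7% and 31.7% over all peaks. The ligand split also turned in edgeR at a false discovery rate of 0.01 (13 lower, 9 higher), without sg1 1 (12 and 10) and without sg1 2 (12 and 11). By receptor type the median was 0.15 over 46 Frizzled peaks and 0.39 over 32 LRP5 and LRP6 peaks. The difference between ligands and receptors was not tested. Summed over their peaks and without a test, the ligand genes held 661 and 657 of every 1000000 counts in control against 711 and 717 in sg1, and the receptor genes held 550 and 572 against 626 and 622. In edgeR 8 ligand genes (WNT1, WNT2, WNT2B, WNT3, WNT3A, WNT5B, WNT9B, WNT10B) and 3 receptor genes (FZD7, FZD9, LRP5) held both lower and higher peaks. Only WNT3, WNT3A and LRP5 held calls of both directions that stood in every setting that gave a value. All calls of WNT1 were on peaks shared with WNT10B. How many genes outside the family hold both directions was not counted. Only lower calls were made at WNT6, WNT7A, WNT10A and FZD4, and only higher calls at WNT7B, WNT9A, FZD1, FZD2, FZD6 and LRP6. The only call of WNT6 was on a shared peak that lies inside WNT10A. FZD10 had no peak at all. Neighbouring genes share peaks, 4 between WNT6 and WNT10A, 3 between WNT1 and WNT10B and 1 between WNT3 and WNT9B, and each was counted once in the totals.

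Promoters were compared through the tallest peak on a gene's RefSeq window or, for the 9 genes without one in the table, the tallest peak within 1 kb of either gene end, which need not be the start. Such a peak was found for 9 ligands and 10 receptors. Per kb of peak, the receptor promoters were the more open, with a control median of 18.7 CPM per kb (1.04 at FZD9 to 39.8 at FZD8) against 9.55 for the ligands (2.66 at WNT3 to 22.1 at WNT10B). The most open were FZD8, FZD1 (32.3), FZD4 (31.6) and FZD5 (30.2), and none of these 4 passed the test. In edgeR 3 of 9 ligand and 5 of 10 receptor promoter peaks were higher, against 31.9% of the 12426 promoter peaks of protein-coding genes, and 0 were lower, against 7.76% (39.6% in either direction). At an unadjusted p under 0.05 in edgeR 1 ligand promoter peak, that of WNT10A, and 0 receptor promoter peaks were lower. DESeq2 called 0 of these promoter peaks lower and 1 higher, at LRP6. Over the 12426 promoter peaks of protein-coding genes it called 578 lower and 2150 higher.

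**Figure D2:**
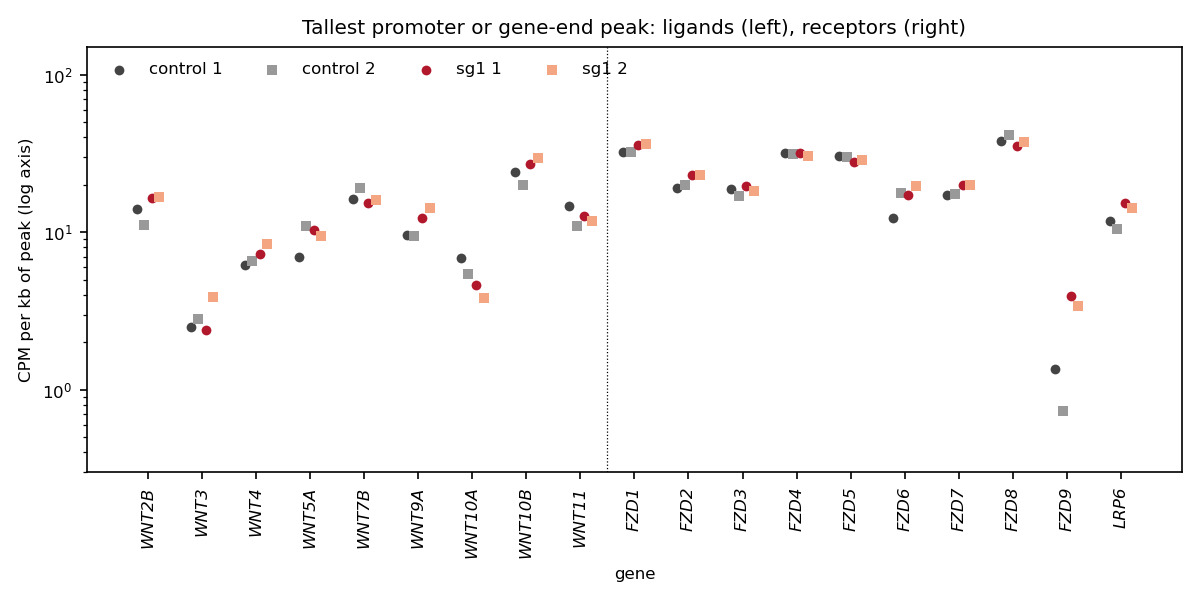
Openness of the tallest promoter or gene-end peak of 9 ligand and 10 receptor genes in each of the 4 libraries, in CPM per kb of peak on a log axis. FZD8, FZD1, FZD4 and FZD5 lie near 30 to 40 CPM per kb with little spread between groups, and FZD9 is near 1 in the control libraries and near 4 in the sg1 libraries.

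WNT10A, a ligand that signals through beta-catenin and is best known for its part in teeth, hair and skin, held the ligand peaks with the smallest p. Its tallest peak (chromosome 2, 218896513 to 218897270), 2.58 kb beyond the end of the gene, had 21.2 and 20.7 CPM in control 1 and 2 and 8.14 and 7.99 CPM in sg1 1 and 2. Both sg1 libraries lay well below both control libraries, a log2 fold change of -1.38 ± 0.11 (SE) with an adjusted p of 6.35e-12 in edgeR. The peak just before it (218896240 to 218896489) fell with it, from 5.01 and 6.52 CPM to 1.58 and 1.52 CPM, a log2 fold change of -1.88 ± 0.23 (adjusted p = 9.22e-08, edgeR). Inside WNT10A, and also within 10 kb of its neighbour WNT6, a further peak (218882833 to 218883155) fell from 3.99 and 3.33 CPM to 1.33 and 1.12 CPM, by 1.58 on the log2 scale (adjusted p = 1.89e-05, edgeR). The other 6 peaks of WNT10A did not pass the test. The peak on the promoter printed above was one of them, at 3.31 and 2.61 CPM in control and 2.21 and 1.83 CPM in sg1, a log2 fold change of -0.56 (adjusted p = 0.0958, edgeR). Its groups did not overlap. Over all 14300 tested peaks of chromosome 2 the median was -0.12, with 21.4% lower and 6.50% higher.

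**Figure D3:**
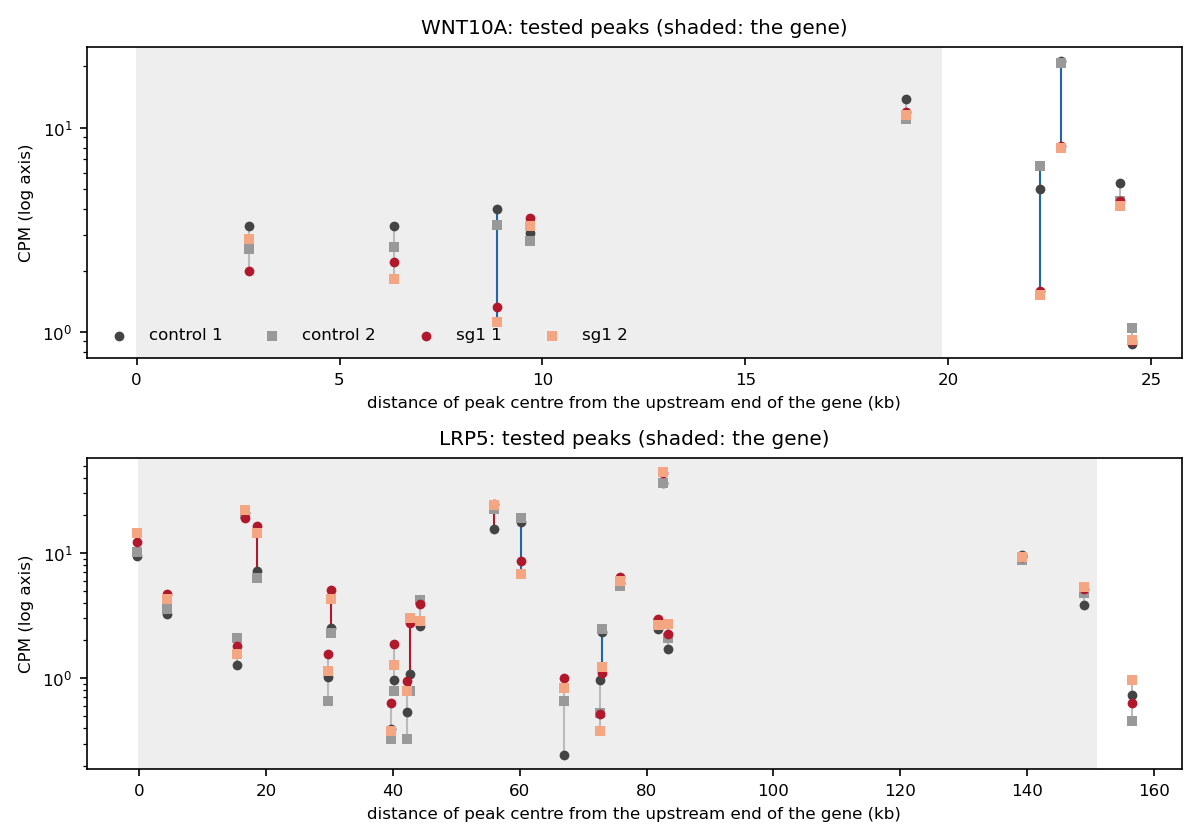
Tested peaks of WNT10A (top) and LRP5 (bottom) in each library, in CPM on a log axis, against the distance of the peak centre from the upstream end of the gene in kb, with the gene shaded and the range of each peak coloured blue where lower, red where higher and grey where neither passed. At WNT10A 3 of 9 peaks are lower in sg1 and none is higher; at LRP5 2 are lower and 6 are higher among 24.

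WNT7A and FZD7 each held 1 weak peak with the largest falls of their groups. At WNT7A, a ligand first studied in limb patterning, the peak (chromosome 3, 13839984 to 13840274) held 18 and 13 counts in control and 4 and 5 counts in the deeper sg1 libraries, a log2 fold change of -2.95 ± 0.56 (adjusted p = 1.34e-04, edgeR). Its tallest peak (13850066 to 13850794) was also lower, from 26.4 and 25.8 CPM to 20.1 and 21.6 CPM, by a log2 fold change of -0.33 (adjusted p = 0.00386, edgeR, and 0.135 without sg1 1).

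WNT2 and WNT2B are closely related ligands of the beta-catenin branch. At WNT2, on chromosome 7, 3 peaks fell, all outside the gene. The strongest fall (117269934 to 117270269) was from 2.82 and 4.63 CPM to 1.47 and 1.65 CPM, a log2 fold change of -1.23 ± 0.26 (adjusted p = 5.59e-04, edgeR). The tallest (117324102 to 117324994), 1.04 kb beyond the other end, fell from 14.8 and 18.9 CPM to 11.01 and 12.2 CPM, a log2 fold change of -0.53 (adjusted p = 7.58e-04, edgeR). These falls stand against a chromosome 7 median of 0.21, with 11.7% of its peaks lower and 21.4% higher. At WNT2B both promoter peaks were higher: the taller (chromosome 1, 112465935 to 112466684) from 10.6 and 8.35 CPM to 12.3 and 12.6 CPM, by 0.38 on the log2 scale (adjusted p = 0.0234, edgeR), and the second by 0.54 (adjusted p = 0.0128, edgeR). Neither passed in DESeq2 (adjusted p = 0.130 and 0.0896). The taller lost its edgeR call without control 2 or either sg1 library (adjusted p up to 0.221, log2 fold change 0.23 to 0.57), and the second without control 1 or sg1 2 (up to 0.180). A peak within WNT2B that also lies inside the neighbouring ST7L gene (112520227 to 112520497) was lower, from 2.24 and 1.30 CPM to 0.633 and 0.457 CPM, a log2 fold change of -1.71. Its edgeR call rested on control 1, since without that library the adjusted p was 0.0531.

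WNT3 and WNT3A, ligands used widely to switch on beta-catenin signalling, held peaks in both directions. At WNT3 a peak inside the gene (chromosome 17, 46796521 to 46796808) fell from 3.89 and 2.74 CPM to 1.54 and 1.22 CPM, a log2 fold change of -1.28 ± 0.27 (adjusted p = 4.20e-04, edgeR), while 5 others were higher. Of these 5, only the peak at 46758743 was called in every setting that gave a value. The others each lost their edgeR call without 1 or more of the libraries, and DESeq2 called 2 of the 5. A small peak 3.59 kb from the gene (46758743 to 46758916) had 0 counts in both control libraries and 24 and 17 counts in the sg1 libraries, at least 6.06-fold higher when 3 counts over the control group are taken as the floor. The WNT3 and WNT9B region lies within the annotated span of LRRC37A2, a gene of a family with near-identical copies, and no source used here says how reads from such copies were placed, so these peaks are uncertain. At WNT3A, on chromosome 1, a peak inside the gene (228037721 to 228038218) fell from 3.70 and 3.001 CPM to 1.40 and 1.57 CPM, a log2 fold change of -1.18 (adjusted p = 6.53e-04, edgeR). Further along the same gene, peaks at 228043335 and 228059675 rose, the second from 5.40 and 2.87 CPM to 7.46 and 8.37 CPM, with log2 fold changes of 0.95 and 0.89 (adjusted p = 0.00227 and 5.69e-04, edgeR). The second was 0.55 to 1.46 with 1 library left out, and passed each time. A weak WNT3A peak at 228013411, with 0 and 5 counts in control and 42 and 32 in sg1, was called higher by edgeR (adjusted p = 0.00318), but not without control 1 (adjusted p = 0.098) and not by DESeq2 (adjusted p = 0.417). WNT9B, a ligand known from kidney development, had 1 lower peak (46837536 to 46837917), at 2.87 and 2.22 CPM against 1.15 and 1.09 CPM, a log2 fold change of -1.19 (adjusted p = 0.00201, edgeR). It also had 1 higher peak (46890011 to 46890373), at 0.632 and 0.391 CPM against 1.42 and 0.913 CPM, a log2 fold change of 1.15 (adjusted p = 0.0408, edgeR), which did not pass without control 2 or sg1 1 (adjusted p up to 0.404) or in DESeq2 (0.249).

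WNT9A, known from joint formation, opened at its start. The promoter peak printed above (chromosome 1, 227947466 to 227948170) rose from 6.81 and 6.65 CPM to 8.66 and 10.1 CPM, a log2 fold change of 0.48 ± 0.15 (adjusted p = 0.0143, edgeR). Of the gene's 6 peaks 4 were higher, and those 4 stood next to each other at its start. None of these 4 passed in DESeq2, in which the promoter peak had an adjusted p of 0.0954, and in edgeR that peak did not pass without sg1 2 (adjusted p = 0.223). The other 3 also lost their edgeR calls without 1 or more of the libraries. WNT5B, a relative of WNT5A, had 4 higher peaks and 1 lower among 11 in edgeR. The tallest of them (chromosome 12, 1639314 to 1640115) rose from 9.38 and 9.78 CPM to 13.4 and 13.6 CPM, by 0.50 on the log2 scale (adjusted p = 0.00186, edgeR). Only this tallest peak was called in every setting. The other called peaks of WNT5B did not pass in DESeq2 (adjusted p = 0.0644 to 0.229). Each also lost its edgeR call without 1 or more of the libraries. All 12 peaks of WNT5A itself had fold changes above 0, with a median of 0.41, 5 had an unadjusted p under 0.05 in edgeR, and none passed the false discovery rate in edgeR or DESeq2. WNT10B shares its surroundings with WNT1, the founding member of the family. Its gene-end peak (chromosome 12, 48972309 to 48973085) rose from 18.7 and 15.6 CPM to 20.9 and 22.9 CPM, by 0.34 (adjusted p = 0.00785, edgeR), but did not pass without control 2 or sg1 2 (adjusted p up to 0.112), in DESeq2 (0.0599) or centred by chromosome (0.179). The tallest peak of the locus (48977218 to 48978018), 0.304 kb from WNT1, was lower, at 28.3 and 24.5 CPM against 22.4 and 22.8 CPM (-0.23, adjusted p = 0.042, edgeR), and did not pass without control 1 or either sg1 library (up to 0.426) or in DESeq2 (0.211). A higher peak at 48957149 (0.52, adjusted p = 0.00110, edgeR), called in every setting tried, sits at an end of ARF3, a gene next to it. At WNT7B, a ligand of lung and mammary epithelium, the higher peak at 45978578 rose by 0.42 (adjusted p = 0.00866, edgeR), but did not pass without control 1 or sg1 1 (adjusted p up to 0.218, log2 fold change 0.23 to 0.59) or in DESeq2 (0.0805). No peak passed in edgeR or DESeq2 at WNT4, WNT8A, WNT8B, WNT11 or WNT16, where 1 lower and 1 higher peak, both of WNT4, had an unadjusted p under 0.05 in edgeR.

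Among the Frizzled receptors, which span the membrane and bind the ligands, the tall promoter or gene-end peaks had small fold changes, from -0.13 at FZD8 to 0.32 at FZD6, and only the weak FZD9 start peak had a larger one. FZD4, known for its part in retinal vessels, had 57.7 and 57.1 CPM in control and 58.1 and 55.8 CPM in sg1 at the promoter printed above, a log2 fold change of -0.01 ± 0.06 (adjusted p = 0.907, edgeR). A second peak inside FZD4 (chromosome 11, 86947584 to 86947955), which also lies within the annotated span of PRSS23, fell from 3.50 and 3.001 CPM to 1.24 and 0.710 CPM, a log2 fold change of -1.73 ± 0.29 (adjusted p = 2.75e-05, edgeR). FZD7, a receptor much studied in breast cancer, held a peak 5.09 kb beyond the gene (chromosome 2, 202043532 to 202043785) with 25 and 16 counts in control and 7 and 4 counts in sg1, the most negative fold change among the called members, at -3.08 ± 0.53 (adjusted p = 2.96e-05, edgeR). The tall FZD7 gene-end peak rose from 25.96 and 26.4 CPM to 30.2 and 30.2 CPM, by 0.21 on the log2 scale (adjusted p = 0.0480, edgeR), and did not pass when any 1 of the 4 libraries was left out (adjusted p up to 0.184) or in DESeq2 (0.187).

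FZD9 was called in opposite directions at its ends, the fall alone in every setting. At its start (chromosome 7, 73433599 to 73433777) a weak peak held 5 and 2 counts in control and 31 and 24 in sg1, a ratio of 3.49 after scaling to depth (95% exact interval 1.58 to 9.07, counting error only), and edgeR called it higher (adjusted p = 0.0251). That call was lost in 7 of 12 other settings, among them DESeq2 (adjusted p = 0.219) and edgeR without control 2 or either sg1 library (up to 0.215). At its other end (73436042 to 73436731) the much taller peak fell from 7.34 and 8.22 CPM to 3.23 and 4.03 CPM, a log2 fold change of -1.10 ± 0.18 (adjusted p = 1.49e-05, edgeR). FZD1, whose promoter had 46.0 and 46.3 CPM against 51.4 and 51.7 CPM (0.16, adjusted p = 0.0648, edgeR), held a weak distal peak with 3 and 1 counts in control and 40 and 36 in sg1, a depth-scaled ratio of 8.43 (interval 3.16 to 31.7). FZD6, linked to planar polarity, held a similar one with 1 and 2 against 31 and 18 counts, a ratio of 7.24 (interval 2.34 to 36.3), which edgeR did not call without control 1 (adjusted p = 0.0778). Its gene-end peak, at 13.9 and 20.0 CPM against 19.3 and 22.2 CPM, passed in edgeR (0.32, adjusted p = 0.0360) although control 2 lay above sg1 1, the only called member whose groups overlapped. Without control 1 its log2 fold change was 0.051 (adjusted p = 0.784, edgeR), without control 2 it was 0.58, without sg1 2 it did not pass (0.22, adjusted p = 0.281), and in DESeq2 the adjusted p was 0.550. FZD2 rose slightly at its gene-end peak, from 17.1 and 17.9 CPM to 20.7 and 20.8 CPM (0.25, adjusted p = 0.0447, edgeR), and did not pass without control 1 or either sg1 library (adjusted p up to 0.183) or in DESeq2 (0.201). Centred by chromosome its value was 0.087 (adjusted p = 0.530, edgeR). None of the peaks at FZD3, FZD5 and FZD8 passed in edgeR or DESeq2, or had an unadjusted p under 0.05 in edgeR, and their tallest peaks had log2 fold changes of 0.07, -0.10 and -0.13.

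LRP5, one of the 2 co-receptors that carry the signal to the cytoplasm, had the most peaks of any member, 25, of which 24 were tested. A peak early in the gene (chromosome 11, 68316755 to 68317244) rose from 7.24 and 6.33 CPM to 16.3 and 14.6 CPM, a log2 fold change of 1.18 ± 0.13 (adjusted p = 1.16e-08, edgeR). A peak further in (68358310 to 68359003) fell from 17.6 and 19.1 CPM to 8.59 and 6.77 CPM, a log2 fold change of -1.25 ± 0.12 (adjusted p = 9.60e-10, edgeR). In both peaks the groups lay far apart, in opposite directions within one gene. Between them, peaks at 68328353 and 68340855 rose by 0.96 and 1.62 (adjusted p = 0.00123 and 9.06e-05, edgeR), the latter from 1.07 and 0.783 CPM to 2.78 and 3.04 CPM. The LRP5 window of the promoter table had no peak. LRP6, the other co-receptor, rose at its gene-end peak (chromosome 12, 12266332 to 12267540) from 14.3 and 12.7 CPM to 18.5 and 17.3 CPM, by 0.40 (adjusted p = 0.00352, edgeR, and 0.0740 without sg1 1), and at a weak peak inside the gene by 1.09 (adjusted p = 0.0394, edgeR, and up to 0.240 without control 1 or either sg1 library). The remaining 6 tested peaks of LRP6 all lay above 0 without passing. Over all tested peaks of chromosome 12 the median was 0.16, with 12.5% lower and 17.3% higher. Centred by chromosome, both LRP6 calls were lost, the gene-end peak standing at 0.24 (adjusted p = 0.0871, edgeR).

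The settings used changed the 2 directions unequally. Of the called members, 14 of 20 lower and 10 of 41 higher peaks were called in every setting that gave a value, and 6 lower and 31 higher ones were lost when 1 of the libraries was left out. Of the 14 and 10, the WNT3 peak with 0 control counts could not be fitted without sg1 1. In DESeq2, 16 of the 20 lower and 12 of the 41 higher members remained. After subtracting each chromosome's median, all 20 lower and 25 of the 41 higher members remained. The ligands' calls then stood at 16 lower and 15 higher.

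**Figure D4:**
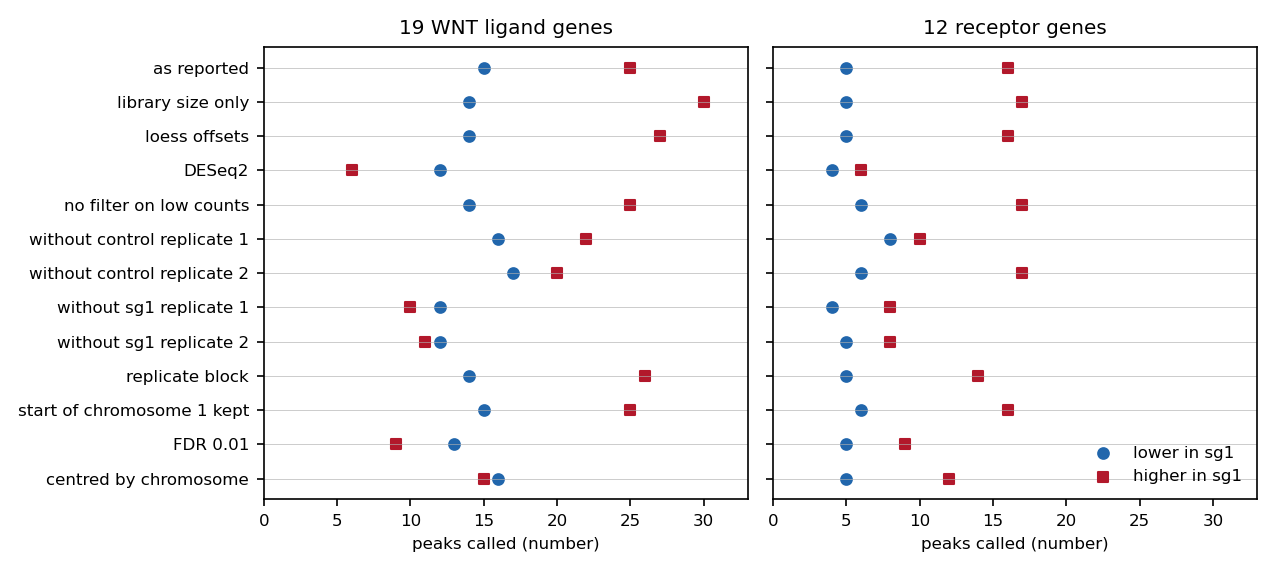
Number of ligand peaks (left) and receptor peaks (right) called lower and higher in sg1 under each setting. The lower counts of the ligands stay between 12 and 17 over the settings shown while their higher counts run from 6 to 30, and those of the receptors run from 4 to 8 and from 6 to 17.

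The partners of the ligands and receptors were read at their promoter peaks, from lists of textbook members. Of 61 genes 41 had such a peak, of which 4 fell and 14 rose, and the median was 0.19. These shares, 9.76% and 34.1%, lie near the background of all promoter peaks of protein-coding genes, 7.76% lower and 31.9% higher with a median of 0.16, and the genes below are given as descriptions. In the secretion pair PORCN, the enzyme that attaches the lipid, was lower, from 15.4 and 15.2 CPM to 9.92 and 11.2 CPM (-0.53, adjusted p = 5.12e-04, edgeR), and WLS, the carrier, did not pass (0.23). PORCN lies on the X chromosome, and its call was lost when centred by chromosome. The calls of NOTUM, LGR5, PTK7, AXIN2 and PYGO2, given below, were also lost when centred. Among 14 extracellular antagonists 6 had a peak and 3 were higher: KREMEN1 by 0.87, NOTUM, which removes the lipid, by 0.52, and DKK4 by 0.43 at a peak shared with an end of VDAC3. Peaks of other genes named here also lay at an end of a neighbour: KREMEN1 (C22orf31), PTK7 (KLC4), DVL2 (PHF23) and PYGO2 (SHC1). Among 9 genes of receptor turnover 6 had a peak and 2 were higher, ZNRF3, a ligase that clears Frizzled from the surface, by 1.16 ± 0.16 (adjusted p = 6.31e-07, edgeR), from 4.52 and 4.57 CPM to 10.3 and 9.92 CPM, and LGR5 by 0.38. Among 11 other receptors and polarity genes 8 had a peak, with PTK7 lower (-0.27) and CELSR1 higher (0.51). Of 10 cytoplasmic genes with a peak 5 were higher, among them the scaffold AXIN1 (0.83), DVL2 (0.79) and APC (0.40), and 2 were lower, the kinases GSK3A (-0.21) and GSK3B (-0.25). In the nuclear list 3 of 7 were higher, the beta-catenin cofactor BCL9 by 1.12 ± 0.16 (adjusted p = 1.10e-06, edgeR), TCF7L2 by 0.36 and PYGO2 by 0.26. Of 8 feedback targets with a peak 4 were higher, AXIN2 (0.30) beside ZNRF3, LGR5 and NOTUM already counted above. No antagonist, turnover, nuclear or feedback gene was lower at its promoter peak in edgeR or DESeq2, with 1 turnover gene lower at an unadjusted p under 0.05 in edgeR and none in the other 3 lists. Within 10 kb of the genes these lists did hold lower peaks: 25 lower and 14 higher of 142 in the nuclear list, 10 and 11 of 71 in the antagonists, 18 and 21 of 120 in turnover and 15 and 20 of 100 in feedback. The promoter calls of PTK7 and GSK3A (without control 1 or either sg1 library, adjusted p up to 0.381 and 0.1999), NOTUM (control 2 or sg1 1, 0.142), CELSR1 (sg1 1, 0.097), AXIN2 (either sg1, 0.0806) and PYGO2 (control 2 or either sg1, 0.217) were lost in edgeR with 1 library left out.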

How the data were processed

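The authors deposited 1 table of raw counts per peak for 4 ATAC-seq libraries, made with featureCounts 1.6.0 on cut-site alignment files without paired or strand options, per the file headers. The submitters' processing notes name, without roles, MACS2 2.2.4, Trimmomatic 0.39, deepTools 3.1.3, DESeq2 1.32, CASAVA, SAMtools and Bowtie2. No source used here names the genome build: 66.6% of 15843 GRCh38.p14 promoter windows held a peak, against 6.51% and 6.21% after shifts of 100 kb either way. The 109 peaks in the first 250 kb of chromosome 1 were left out of library sizes and tests. Counts were scaled by TMM and tested in edgeR 4.0.16 (R 4.3.3, limma 3.58.1) with glmQLFTest, sg1 against control, on the 184717 peaks left by filterByExpr, with Benjamini-Hochberg adjustment over all of them. The fit was also run on counts simulated from the observed means, library sizes and common dispersion. Those counts held no batch difference between groups, so the run cannot speak to one in the libraries. CPM are counts per 1000000 of the TMM-adjusted library size; the common coefficient of variation between libraries was 8.12%. With 2 libraries a group, small changes at weak peaks are poorly resolved.

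Alternatives were scaling by library size or a loess curve, DESeq2 1.42.0, no filter, each library left out, a replicate block, the start of chromosome 1 kept, a false discovery rate of 0.01, centring by chromosome, and windows of 2 and 50 kb. Values are named for each gene's tallest promoter peak, its peak with the smallest p among those called, and up to 10 called peaks per direction with the largest fold changes, a mean of at least 30 counts and no overlap; up to 3 genes per pathway list. Peaks named beyond these (the tallest of WNT2 and WNT7A, the second promoter peak of WNT2B, the WNT1 peak at 48977218, AXIN2, GSK3A, GSK3B and WLS) were chosen after their values were seen. The members and lists were chosen with earlier results of these data known. Of the 223 member peaks, 32 lie inside another protein-coding gene and 11 at an end of one.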

Additional observations from a re-analysis of the deposited data

Results flagged for a closer look

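Among the 7 member peaks with too few counts to be tested, 3 had both sg1 libraries above both control libraries after scaling to depth. At WNT1 a peak at 48985223 held 4 and 0 counts in control and 13 and 15 in sg1, 0.0952 against 0.342 CPM. At WNT9B a peak at 46868707 held 3 and 4 against 13 and 19 counts, 0.1999 against 0.393 CPM. At LRP5 a peak at 68335054 held 0 and 2 against 21 and 9 counts, 0.0643 against 0.357 CPM. When no filter was applied, edgeR gave adjusted p-values of 0.162, 0.318 and 0.0448 for these 3.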

How the results depend on the processing

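Leaving out 1 library at a time gave 16 to 24 lower and 18 to 37 higher members, 12 to 17 and 10 to 22 ligand peaks, and 4 to 8 and 8 to 17 receptor peaks; the fewest higher calls came without an sg1 library, and the 8 lower receptor peaks without control 1. Over all peaks these fits gave 18888 to 29467 lower and 11147 to 20243 higher, and 2 to 4 lower promoter peaks among the pathway genes. DESeq2 called 17818 lower and 8283 higher over all peaks, 12 higher members (6 ligand, 6 receptor) and 2 lower pathway genes. A false discovery rate of 0.01 left 11458 higher over all peaks, 18 higher members (9 ligand, 9 receptor) and 2 lower pathway genes, and the loess curve also left 2. Centring by chromosome left 27 higher members, 15 of them ligand. Of all calls at members, 67.2% were higher as reported, 42.9% in DESeq2 and 56.3% after centring. Over all peaks these shares were 40.7%, 31.7% and 37.3%. A 50 kb window gave 47 lower and 70 higher members, with 31 and 47 at ligands and 16 lower at receptors. No label says whether libraries with the same replicate number belong together. Deviations from the group means correlated at -0.000258 over same numbers. With 2 libraries a group, the value over crossed numbers is fixed as the negative of this one. A replicate block gave 19 lower and 40 higher members, and FZD2 (adjusted p = 0.0512) and the FZD7 gene-end peak (0.0565) no longer passed. None of the 61 called members changed sign in any setting. Among uncalled peaks with named values the sign changed at the tallest peaks of FZD1 (-0.054) and FZD5 (0.025) when centred, and of FZD4 by library size (0.035), by loess (0.063) and when centred (0.034). With 1 library left out it ran from -0.12 to 0.57 at WNT3, -0.15 to 0.51 at WNT5A, -0.25 to 0.15 at WNT11 and -0.027 to 0.034 at FZD4; the cause of these changes was not tested. Depth limits peaks near 10 counts, whose calls rest on few control counts.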
